A study of Mus musculus with 12 samples.

Results

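The genes described here are 41 mouse genes of interferon signaling and of the cytokine program of fibroblasts, read from chromatin accessibility on day 2 of hepatocyte reprogramming. They are a list of gene names, drawn up with earlier results of these data known. A peak, that is, a window of open chromatin found by ATAC-seq, was counted as theirs where it overlapped the gene body or the 10 kb on either side of it (GENCODE M21, mm10). This gave 203 of the 176680 peaks, and each of the 41 genes had at least 2 peaks and at most 17, with a median of 4. Of these peaks, 195 lay in the window of 1 gene and 8 in several windows.

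ATAC-seq measures where the transposase Tn5 can cut DNA. The cells were primary embryonic fibroblasts (MEFs) of wild-type C57BL/6N mice, and all of them carried a lentivirus for rtTA, the activator that switches on tetO transgenes in doxycycline. The 12 libraries of day 2 formed 4 groups of 3, namely MEF (rtTA alone), Prox1_OE (rtTA and FLAG-tagged mouse Prox1), 4in1_GFP_OE (rtTA, the 4in1 reprogramming construct and GFP) and 4in1_Prox1_OE (rtTA, 4in1 and FLAG-tagged mouse Prox1). The table analyzed here covers the last 2 groups, called the GFP arm and the Prox1 arm below, so every comparison asks how accessibility differed when Prox1 replaced GFP beside 4in1. These are cultures of primary cells, transgene levels per cell were not measured here, and the labels do not say whether the libraries of a group came from separate embryos or cultures.

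For each peak the table gives the log2 of the authors' mean normalized read count over the 3 libraries of an arm. Values below are these means turned back to reads per window, and pairs of read values are given in the order GFP arm and Prox1 arm. Differences are log2, Prox1 arm minus GFP arm, so that negative means less accessible with Prox1. Almost all windows (176672) had 1 common width, so levels can be set beside each other per length. No value per library was used. The values therefore carry no error, no difference was tested, the depth per library is unknown, and "lower" or "higher" below means past a fixed limit of 2-fold between the group means. Over all peaks the median difference was -0.42, from 122 reads in the GFP arm to 88.3 in the Prox1 arm at the median peak of each, and differences are also given relative to this shift. In bulk chromatin, fewer cells with an open site and less opening per cell cannot be told apart.

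All 10 fibroblast markers had a promoter peak, with 156 to 784 reads in the GFP arm and differences of -0.64 to 0.20, and none was past 2-fold. Of 8 macrophage markers, 3 had one, while Ptprc, Adgre1, Spi1, Itgam and Fcgr1 had none. The 3 were Cd68 (-0.51), Lyz2 (142 and 52.3 reads, -1.44) and Csf1r (274 and 84.1 reads, -1.71), so a pair of macrophage marker promoters was lower in the Prox1 arm, and their part in the values below was not tested. Of 5 endothelial markers 3 had a promoter peak, 1 of them lower (Pecam1, -1.59), of 4 epithelial markers 4, and of 5 hepatocyte markers 1 (Apob).

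Type I interferon binds its receptor on the cell surface and, through the kinases Jak1 and Tyk2, activates a complex with Stat2 and Irf9 that binds interferon-stimulated response elements (ISREs) and turns on antiviral genes. Fibroblasts also make cytokines and chemokines such as Il6, Ccl2 and Cxcl1 in response to tissue damage or infection, largely through NF-kB and AP-1 factors at promoters and distal enhancers. Fibroblasts are a classic source of interferon and of these inflammatory signals, and both programs are usually kept low until a stimulus arrives.

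The promoter sequences below were read from the GRCm38 (mm10) genome, 5′ to 3′ on the strand of the gene, within the promoter peak and upstream of the first exon. They are shown because they carry the response elements of both programs. Capitals mark matches to ISRE core (GAAANNGAA), GAS (TTCNNNGAA, the element of Stat dimers), kappaB (GGANTTTCC, the element of NF-kB) and AP-1 (TGANTCA), on either strand. The first set belongs to interferon-stimulated effectors. The Ifit1 stretch (chr19:34640719-34640870, plus strand) holds 3 ISRE cores, of which a pair overlaps. The Rsad2 stretch (chr12:26456453-26456596, minus strand) holds an ISRE core and an AP-1 match. The Usp18 stretch (chr6:121245769-121245905, plus strand) holds 2 ISRE cores. In the Bst2 stretch (chr8:71537457-71537638, minus strand), the 2 ISRE cores overlap, and a GAS match overlaps 1 of them.
Ifit1: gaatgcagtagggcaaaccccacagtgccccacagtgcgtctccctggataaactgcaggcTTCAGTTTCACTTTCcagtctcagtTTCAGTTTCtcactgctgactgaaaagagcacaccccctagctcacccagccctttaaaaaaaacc
Rsad2: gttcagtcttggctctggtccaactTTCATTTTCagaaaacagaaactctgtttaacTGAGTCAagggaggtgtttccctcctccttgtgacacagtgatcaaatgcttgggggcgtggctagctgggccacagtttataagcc
Usp18: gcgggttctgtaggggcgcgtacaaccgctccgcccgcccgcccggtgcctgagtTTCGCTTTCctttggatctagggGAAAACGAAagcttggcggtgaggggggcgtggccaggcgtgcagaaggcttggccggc
Bst2: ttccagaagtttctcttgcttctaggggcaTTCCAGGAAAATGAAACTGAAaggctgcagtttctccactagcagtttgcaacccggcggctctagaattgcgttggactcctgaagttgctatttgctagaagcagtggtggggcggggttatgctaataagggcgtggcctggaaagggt

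The second set holds kappaB or GAS matches. B2m (chr2:122147527-122147685, plus strand) carries an ISRE core and a kappaB match 4 bases apart, Cxcl10 (chr5:92348894-92349094, minus strand) a kappaB and an AP-1 match, Cxcl1 (chr5:90891080-90891240, plus strand) a kappaB match, Tnfaip3 (chr10:19015411-19015562, minus strand) an AP-1 and a kappaB match, and Ccl2 (chr11:82035388-82035570, plus strand) a GAS match. The differences of these 9 promoters ran from -1.57 for Cxcl10 and -1.25 for Ccl2 to -0.17 for B2m.
B2m: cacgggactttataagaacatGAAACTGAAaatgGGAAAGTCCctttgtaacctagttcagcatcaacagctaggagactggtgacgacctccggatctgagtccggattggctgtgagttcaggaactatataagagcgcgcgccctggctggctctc
Cxcl10: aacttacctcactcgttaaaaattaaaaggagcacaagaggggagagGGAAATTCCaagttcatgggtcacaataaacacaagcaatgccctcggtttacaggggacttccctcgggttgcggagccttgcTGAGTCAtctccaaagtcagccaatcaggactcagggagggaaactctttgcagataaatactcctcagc
Cxcl1: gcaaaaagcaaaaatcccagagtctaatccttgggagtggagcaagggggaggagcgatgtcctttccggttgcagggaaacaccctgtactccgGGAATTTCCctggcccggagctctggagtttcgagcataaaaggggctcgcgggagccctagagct
Tnfaip3: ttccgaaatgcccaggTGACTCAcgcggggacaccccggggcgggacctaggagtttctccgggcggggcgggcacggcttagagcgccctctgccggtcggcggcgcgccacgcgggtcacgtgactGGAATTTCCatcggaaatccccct
Ccl2: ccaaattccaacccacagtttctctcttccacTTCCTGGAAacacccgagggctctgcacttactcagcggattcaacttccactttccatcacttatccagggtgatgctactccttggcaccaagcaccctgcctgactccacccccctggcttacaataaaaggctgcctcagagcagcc

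Across the 203 peaks, accessibility was mostly lower in the Prox1 arm, to about the extent seen over the whole genome. The median difference was -0.56 (quartiles -1.01 and -0.11, range -2.24 to 2.70), against -0.42 over all peaks. Of the 203 peaks, 52 were lower (25.6%, against 24.4% of all peaks) and 8 were higher (3.94%, against 8.33% of all peaks), and 143 lay between. The difference was below 0 in 167 peaks, 82.3% against 72.3% of all peaks. Measured from the genome-wide median instead of 0, the share below 0 was 56.2%, with 20 peaks lower (9.85%, against 8.64% of all peaks on that scale) and 16 higher (7.88%, against 13.4%).

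Peaks within 1 kb of a start site differed less than distal ones, in this gene set as in the genome. Of the 63 peaks within 1 kb of any start site, 7 were lower and 0 higher (8.26% and 3.16% of the 22215 promoter peaks of the genome), with a median of -0.52 against -0.21. Of the 140 distal peaks, 45 were lower (32.1%, against 26.7% of all distal peaks) and 8 higher (5.71%, against 9.08%), with a median of -0.63 against -0.49. Among distal peaks of like accessibility (the same one of 10 equal bins of the genome), 28.6% were lower and 6.57% higher, and the distal member peaks sat a median of -0.06 from the medians of these bins. The 43 promoter peaks of the members themselves had a median of -0.54, and 33 of them were below the median of promoter peaks of like accessibility. Over all 43, the median distance from it was -0.35.

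A promoter peak was found for 38 of the 41 genes, and where a gene had several the most accessible one was read. Isg15, Ifit3 and Oas2 had none. Positions below are those of peak centers from the nearest annotated start site. Tap1 and Psmb9, which are transcribed away from each other, share 1 peak, so 37 distinct peaks were read. Of the 38 values, 36 were below 0 (21 once centered on all peaks), 29 were below the median of all promoter peaks and 21 were below its lower quartile of -0.46. Past 2-fold were 4 values, all lower, those of Cxcl10, Ddx58, Ccl2 and Oasl2, beside 8.26% lower and 3.16% higher among all promoter peaks. Once centered on all peaks, Cxcl10 (-1.15) stayed past 2-fold, while Ddx58 (-0.84), Ccl2 (-0.83) and Oasl2 (-0.80) did not. The median over the 38 genes was -0.52. Promoter peaks differ in accessibility and base composition. Against promoter peaks of like accessibility 23 of 38 were below the lower quartile, and against those of like GC content 18 of 38.

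**Figure D1:**
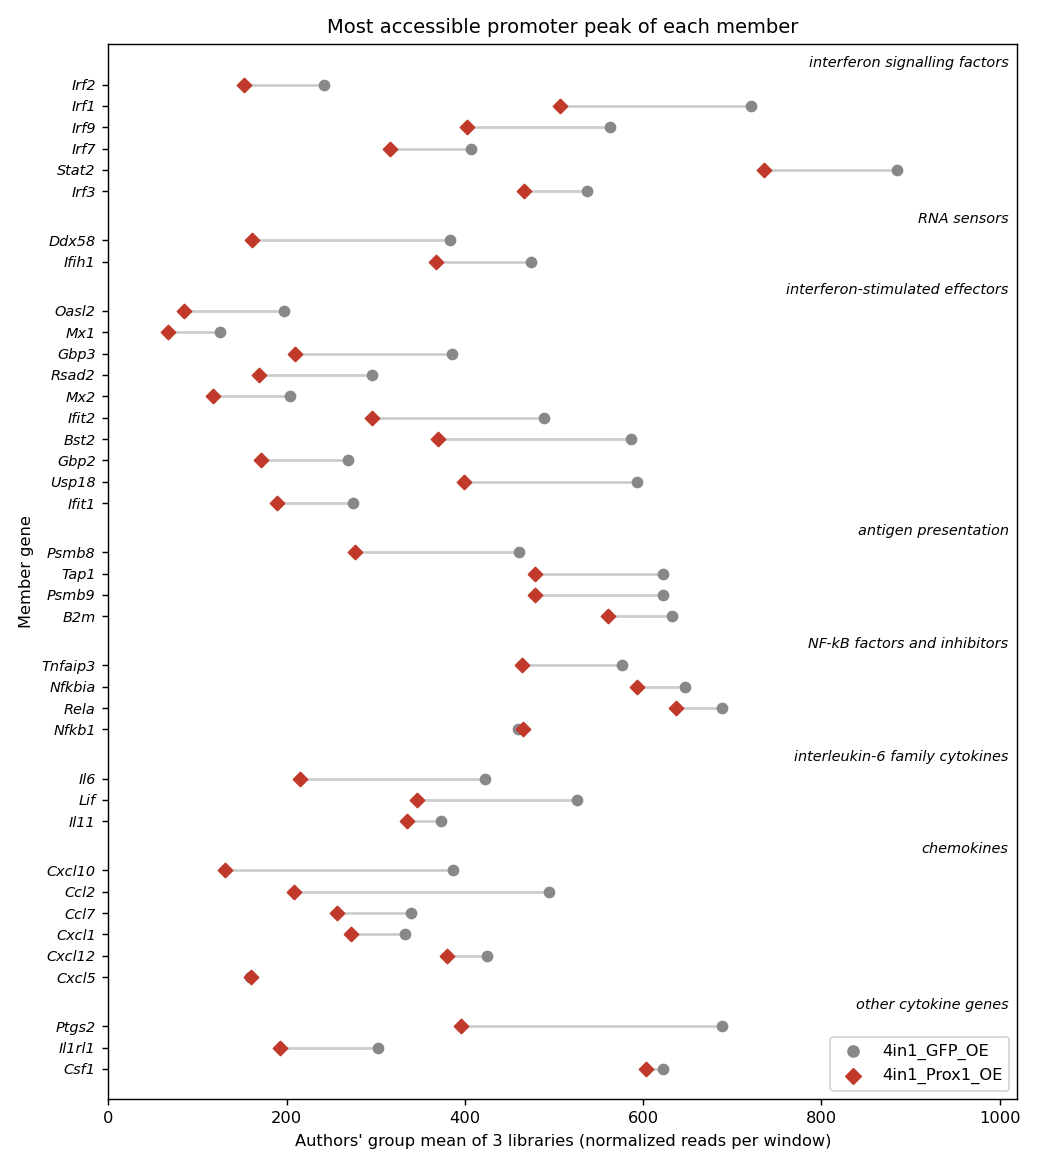
Authors' group means of 3 libraries at the most accessible promoter peak of each of 38 genes, in normalized reads per window, with circles for 4in1_GFP_OE and diamonds for 4in1_Prox1_OE, and genes grouped by role and sorted by difference. The Prox1 arm lies to the left of the GFP arm in 36 of 38 genes (21 when differences are centered on all peaks), and the longest distances in reads are at Ptgs2, Ccl2, Cxcl10 and Ddx58.

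The interferon-stimulated effectors were the only 1 of the 8 groups in which every measured promoter was below the lower quartile of promoter peaks. All 10 of them with a promoter peak lay between -1.22 and -0.54, with a median of -0.76, and all 10 stayed below 0 once centered on all peaks. Against promoter peaks of like accessibility 9 of 10 were below the lower quartile, and against those of like GC content 7 of 10. On either matching the RNA sensors were below it too, 2 of 2, so the trait is not particular to the effectors there. Oasl2, a relative of the oligoadenylate synthetases, had 197 reads in the GFP arm and 84.6 in the Prox1 arm (-1.22) at a peak centered 689 bases inside the gene. Mx1 and Mx2 encode antiviral GTPases. Mx1 had 126 and 66.9 reads (-0.91), and a second promoter peak of Mx1 had 116 and 40.5 (-1.52). Mx2 had 203 and 117 reads (-0.79).

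Gbp3 and Gbp2 encode guanylate-binding proteins that act on intracellular pathogens, and had 386 and 209 reads (-0.88) and 269 and 171 reads (-0.65). Rsad2, the antiviral enzyme viperin, had 295 and 169 reads (-0.80). The paired genes Ifit2 and Ifit1 encode proteins that bind viral RNA. Ifit2 had 488 and 296 reads (-0.72) and Ifit1 274 and 189 (-0.54), the log2 difference nearest to 0 of the 10, at a peak near the start of another gene too. Bst2, or tetherin, which holds budding virions at the membrane, had 586 and 370 reads (-0.66). Usp18, the enzyme that removes Isg15 from proteins and dampens receptor signaling, had 594 and 399 reads (-0.57). Isg15 itself, a ubiquitin-like modifier, had its nearest upstream peak centered at -2357 bases, with an ISRE core and 385 and 265 reads (-0.54), within 1 kb of the start of another gene.

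The RNA sensors that trigger interferon production were unlike each other at the promoter. Ddx58, which encodes RIG-I, had 383 and 161 reads (-1.25) at a peak centered 553 bases inside the gene. Ifih1, which encodes MDA5, had 474 and 368 reads (-0.37), above 0 once centered. Larger log2 gaps at Ifih1 lay upstream, where a peak centered at -5881 bases (chr2:62651992-62652192) had 294 and 86.4 reads (-1.77) and one at -8497 had 160 and 69.0 (-1.21). Of 13 peaks at both genes, 4 were lower (30.8%) and 0 higher, beside 24.4% and 8.33% of all peaks.

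The 6 interferon signaling factors had promoter differences of -0.67 to -0.20 with a median of -0.42, none past 2-fold, and 3 of them were above 0 once centered on all peaks. Irf2, a factor that antagonizes Irf1 at many response elements, had 242 and 152 reads (-0.67) at an internal start site and 217 and 172 (-0.34) at the 5′ end of the gene. Irf1, the early interferon-gamma response factor, had 721 and 507 reads (-0.51) at a promoter with a GAS match. Irf9, the DNA-binding partner of Stat2, had 563 and 403 (-0.48). Irf7, the amplifier of type I interferon genes, had 407 and 316 (-0.36). Stat2 had the highest level of any peak in the set, 885 and 736 reads (-0.27). Irf3, the constitutive factor that starts interferon transcription, had 537 and 467 (-0.20) at a peak that lies within 1 kb of the start of another gene too. A second promoter peak of Irf3 had 348 and 386 reads (0.15). Irf7, Stat2 and Irf3 are the 3 above 0 once centered.

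In the antigen presentation group, Psmb8, an interferon-induced proteasome subunit, had 461 and 277 reads (-0.73). The shared peak of Tap1, the peptide transporter, and Psmb9, another such subunit, had 623 and 479 (-0.38). B2m, the light chain of MHC class I, had 632 and 560 (-0.17). The last 2 peaks were above 0 once centered. Downstream of B2m, a peak centered 14054 bases past its start had 440 and 139 reads (-1.66), the 1 lower peak of 8 in the group. This peak lies within 1 kb of the start of a gene that is no member.

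The NF-kB genes had the promoter median nearest to 0, and their values sat above the median of all peaks in every case. Nfkb1, the p50 subunit, had 460 and 465 reads (0.015). Rela, the p65 subunit, had 689 and 637 (-0.11). Nfkbia, the inhibitor that holds NF-kB in the cytoplasm, had 648 and 593 (-0.13), and Tnfaip3, the A20 inhibitor, had 576 and 465 (-0.31). The median was -0.12, and none of the 4 was below the lower quartile of all promoter peaks. Against promoter peaks of like accessibility 1 of the 4 was below it, and against those of like GC content 0. These were also the promoters with the highest GC content of the 8 groups (median 71.6%, against 54.0% for the effectors). The other 24 peaks of the group had 10 lower and 0 higher (41.7% lower, against 26.7% of all distal peaks) and a median of -0.78, against -0.49. Of these 10, 7 were at Nfkb1, which holds 17 of the 28 peaks of the group, and none at Rela. Once centered on all peaks, 3 of the 24 were lower and 1 higher (14751 and 22276 of the 154465 distal peaks of the genome).

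**Figure D2:**
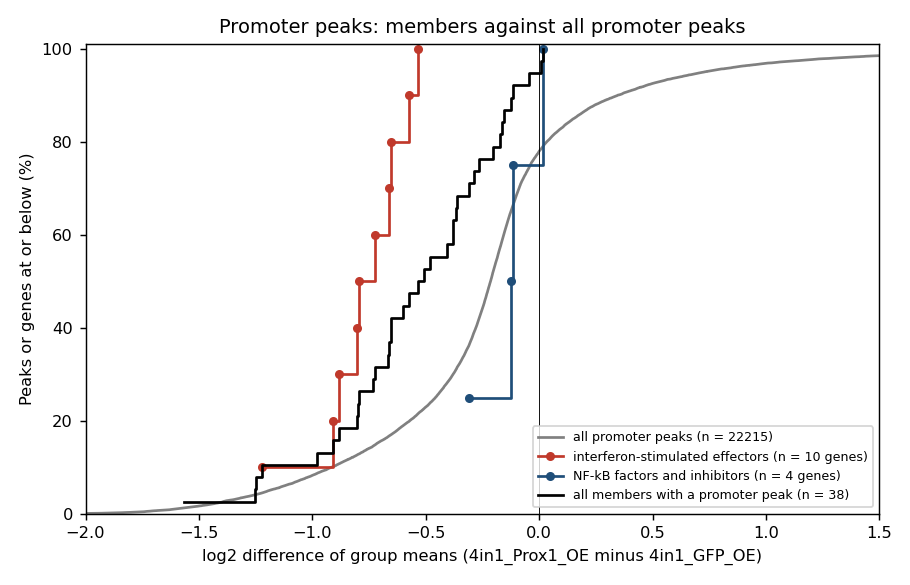
Cumulative share of promoter values at or below each log2 difference (horizontal axis, 4in1_Prox1_OE minus 4in1_GFP_OE), for all promoter peaks of the genome, for 38 members and for 2 of their groups. The interferon-stimulated effectors lie wholly between -1.22 and -0.54 and the NF-kB genes between -0.31 and 0.015, where 25% of all promoter peaks are below -0.46.

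Among the cytokines of the interleukin-6 family, Il6 itself had 423 and 215 reads at the promoter (-0.98), and its only other peak, in the UTR, had 177 and 71.8 (-1.30). Lif, the leukemia inhibitory factor, had 526 and 347 (-0.60), and Il11 had 373 and 335 (-0.16), both at internal start sites. Il11 was above 0 once centered. Il6 and Lif were below the lower quartile of promoter peaks, also among those of like accessibility or GC content. Of the 15 peaks at these genes 2 were lower (13.3%) and 0 higher, beside 24.4% and 8.33% of all peaks, and the other 12 peaks had a median of -0.07.

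The chemokines ranged most widely, from -1.57 to 0.0081, with a median of -0.35. Cxcl10, the interferon-induced attractant of T cells, had the largest promoter gap of all members in log2, 386 and 130 reads (-1.57). Its peak was centered at -105 bases, and only 1.23% of all promoter peaks had a lower value. Ccl2, the attractant of monocytes, had 495 and 208 reads (-1.25) at -83 bases. The 4 other chemokines lay closer to 0, and all 4 were above it once centered. Ccl7, a neighbor and relative of Ccl2, had 340 and 257 (-0.40). Cxcl1, an attractant of neutrophils, had 332 and 272 (-0.29). Cxcl12, the ligand of Cxcr4, had 425 and 380 (-0.16), and Cxcl5, another neutrophil attractant, had 159 and 160 (0.0081). A second, weaker promoter peak of Cxcl5 had 135 and 81.1 reads (-0.73).

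Of the other genes, Ptgs2, the inducible cyclooxygenase, had 688 and 396 reads (-0.80) at a peak within 1 kb of another start too. Il1rl1, the receptor of interleukin-33, had 303 and 193 (-0.65) at an internal promoter with a kappaB match. Csf1, the macrophage growth factor, had 622 and 603 (-0.05) at its main promoter and was above 0 once centered, while an internal promoter peak of Csf1 had 114 and 65.6 (-0.80).

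Lower peaks numbered 0 to 7 per gene, beside a share of 24.4% of all peaks. None was lower at Lif (7 peaks), Rsad2 (6) or Rela (4), and the loci with the most, chosen after their values were seen, were these. At Nfkb1 7 of 17 peaks were lower beside a promoter near 0, and an intronic peak (chr3:135628785-135628985) had 320 and 90.7 reads (-1.82). At Csf1 5 of 11 peaks were lower, from -1.28 to -1.08, again beside a promoter near 0. At Irf2 7 of 15 peaks were lower, and one in an intron (chr8:46811381-46811581) had 437 and 135 reads (-1.70). At Ccl2 4 of 5 peaks were lower, promoter included, and the remaining one was the Ccl7 promoter. A pair of those peaks lies between Ccl2 and Ccl7 and belongs to both windows. At Il1rl1 4 of 9 peaks were lower, and the most accessible of them, in an intron, had 678 and 293 reads (-1.21). Once centered on all peaks, lower peaks numbered 5 at Irf2, 3 at Il1rl1, 2 at Nfkb1, 1 at Ccl2 and 0 at Csf1. On that scale 8.64% of all peaks were lower.

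The largest log2 gap at any accessible member peak was at Cxcl12, where a window in a coding exon (chr6:117178511-117178711) had 189 and 40.0 reads (-2.24) beside a promoter at -0.16. Downstream of Cxcl1 a peak (chr5:90898506-90898706) had 255 and 72.2 (-1.82), beside a promoter at -0.29. Cxcl1, Cxcl12, Nfkb1 and Ifih1 thus had a distal peak at -1.77 or below while their promoters lay between -0.37 and 0.015. One more peak was lower by over 4-fold, downstream of Il1rl1 (114 and 24.4 reads, -2.23), named after its value was seen. Among the accessible member peaks, the highest values were 0.60 in an intron of Il11 (128 and 195 reads), 0.59 downstream of Cxcl5 (89.7 and 135) and 0.54 in an intron of Rsad2 (88.0 and 128). An intronic peak of Lif (262 and 333 reads, 0.35) and a peak upstream of Mx1 (112 and 138 reads, 0.31) were next, and none of these 5 was past 2-fold. Those at Cxcl5 and Mx1 lie within 1 kb of the start of another gene.

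**Figure D3:**
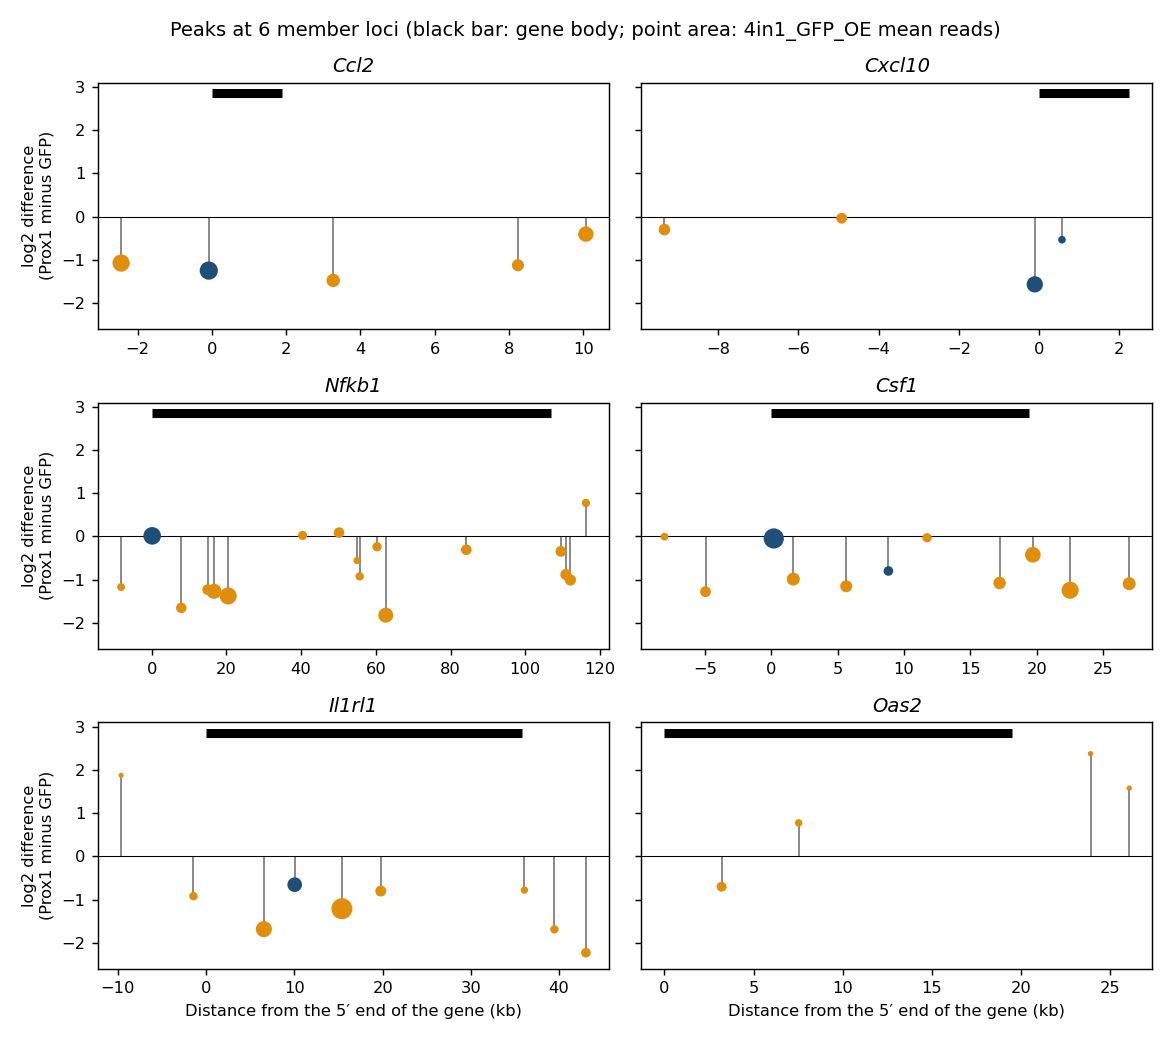
Peaks at 6 loci by distance from the 5′ end of the gene (horizontal axis, kb, in the direction of transcription) and log2 difference of group means (vertical axis, Prox1 arm minus GFP arm), with point area for the level in the GFP arm and promoter peaks in blue. At Ccl2 all 5 peaks are below 0, at Nfkb1 and Csf1 the promoter lies near 0 beside 7 and 5 lower peaks (2 and 0 once centered on all peaks), and at Oas2 the 2 peaks past 2-fold have small areas.

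The 8 higher peaks, named after their values were seen, were all weak in the GFP arm, with 17.6 to 45.7 reads against 188 at the median member peak. They lay in an intron of Gbp3 (17.6 and 114 reads, 2.70), downstream of Oas2 (24.0 and 124, 2.38, and 23.0 and 68.8, 1.58), upstream of Il1rl1 (20.5 and 75.2, 1.88), in an intron of Oasl2 (21.7 and 60.5, 1.48), downstream of Ifit1 (40.3 and 95.4, 1.24) and in introns of Ifit2 (28.0 and 63.9, 1.19) and Usp18 (45.7 and 92.3, 1.01). Except for the one at Il1rl1 they belong to interferon-stimulated effectors, whose 43 peaks away from their own promoters held 6 lower and 7 higher ones (14.0% and 16.3%, against 26.7% and 9.08% of all distal peaks). Of these 43, 7 lie within 1 kb of the start of a gene that is no member, none of them past 2-fold. All 8 were below the median accessibility, as were 89.4% of the higher peaks of the genome. In the weakest of 3 equal bins of accessibility, 20.0% of member peaks were lower and 22.9% higher, against 19.2% and 18.4% of all peaks, and in the other 2 bins no member peak was higher, against 5.99% and 0.638% of all peaks.

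**Figure D4:**
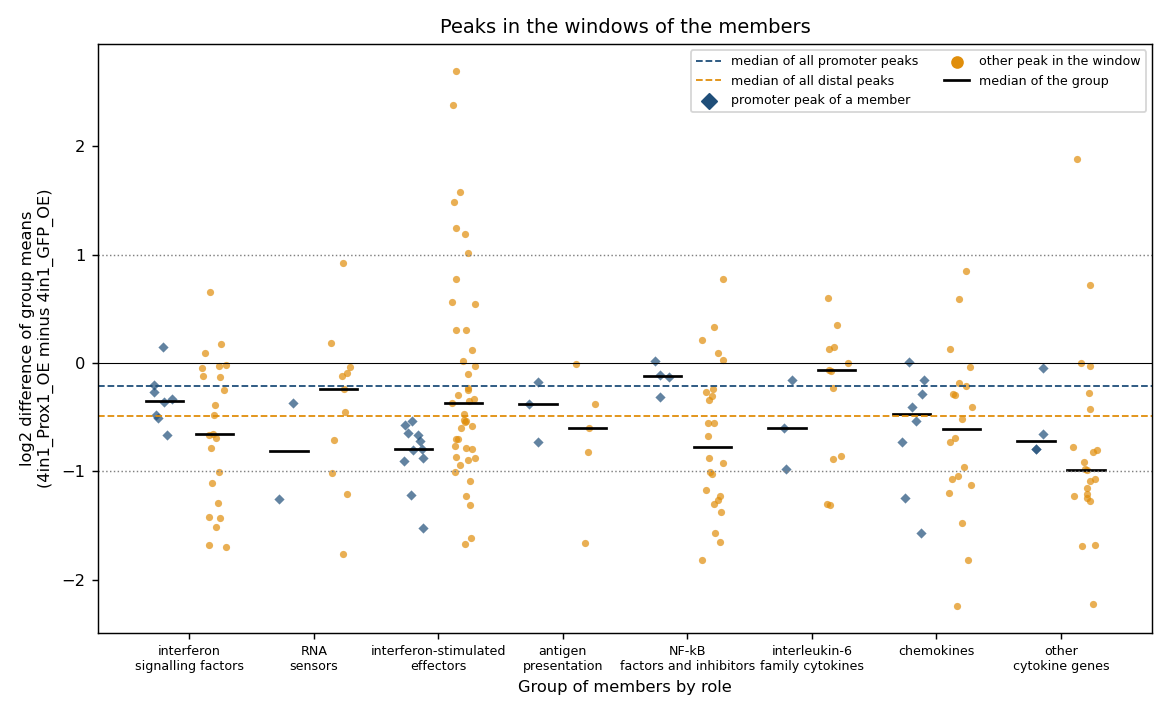
Log2 difference of group means (vertical axis, 4in1_Prox1_OE minus 4in1_GFP_OE) of each member peak by role, with diamonds for promoter peaks and circles for other peaks, black bars for group medians, dashed lines for the medians of all promoter peaks (-0.21) and all distal peaks (-0.49) and dotted lines for the 2-fold limit. Effector promoters lie together below -0.5 while their other peaks spread from -1.68 to 2.70, and NF-kB promoters lie near 0 above a median of -0.78 for their other peaks, most of them at Nfkb1.

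By gene, 25 of the 41 had at least 1 lower peak, 7 had at least 1 higher one and 14 had neither. These counts rise with the number of peaks per gene, were not computed for other genes, and are given as a description only. The median over the peaks of a gene was below 0 for 38 genes (26 were below the median of all peaks) and above 0 for Irf3 (0.15), Oas2 (1.18) and Oasl2 (0.014). Across roles, lower peaks numbered 10 of 28 for the NF-kB genes, 10 of 26 for the other cytokine genes, 9 of 28 for the chemokines, 4 of 13 for the RNA sensors, 8 of 31 for the interferon factors, 8 of 54 for the effectors, 2 of 15 for the interleukin-6 family and 1 of 8 for antigen presentation. These shares run from 38.5% for the other cytokine genes to 12.5% for antigen presentation, on either side of the 24.4% of all peaks. Their order changed once centered on all peaks, where 8.64% of all peaks were lower. There the interferon factors had 5 of 31 lower, the chemokines 4 of 28 and the NF-kB genes 3 of 28. The other cytokine genes had 3 of 26, the effectors 3 of 54 and the RNA sensors 1 of 13. Antigen presentation had 1 of 8 and the interleukin-6 family 0 of 15.

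Sequence was not read in choosing the genes, but the list names interferon and cytokine genes, and these motifs are response elements of those programs. A higher share of them at the promoters can therefore follow from the list itself. An ISRE core occurred in 9 of the 63 member peaks within 1 kb of any start site (14.3%), against 3.86% of all promoter peaks, and in 5.00% of distal member peaks against 5.80% of all distal peaks. A kappaB match occurred in 7 of the 63 (11.1%, against 0.963%) and a GAS match in 12.7% against 4.24%. Of these 9 peaks, 6 were the promoter peaks of Ifit1, Rsad2, Usp18, Bst2, B2m and Csf1, with differences from -0.80 at Rsad2 to -0.05 at Csf1. The other 3 lay near the start of a gene that is no member, upstream of Isg15 (-0.54), downstream of Bst2 (-0.94) and downstream of Tap1 and Psmb8 (-0.01). The kappaB matches lay in those of Cxcl10 (-1.57), Il1rl1 (-0.65), Tnfaip3 (-0.31), Cxcl1 (-0.29), B2m (-0.17), Nfkbia (-0.13) and Nfkb1 (0.015). Promoters that share an element thus differed widely, and neither element went with 1 range of values.

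An AP-1 match was present in 23.6% of member peaks, against 28.8% of all peaks, and the TEAD element (GGAATG) in 14.8% against 20.1%. The 48 member peaks with an AP-1 match had a median of -0.85, and the rest -0.48. Over all peaks these medians were -0.82 and -0.29. Of the 48, 19 were lower (39.6%, against 39.8% of all peaks with a match) and 2 were higher, at Oas2 (2.38) and Ifit2 (1.19). The low peaks at Cxcl12 (-2.24) and Irf2 (-1.70) hold a match, and those at Cxcl1 (-1.82), Nfkb1 (-1.82) and Ifih1 (-1.77) hold none. The median GC content of member peaks was 49.8% against 48.8% of all peaks, and near start sites it was 55.2% against 61.2%.

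Around the members, promoters of other genes of the pathway had list medians of -0.53 to -0.17, beside -0.52 for the members. The counts that follow stand beside 8.26% lower and 3.16% higher among all promoter peaks. The interferon receptors and their kinases, with 6 of 7 genes measured, had 0 promoters past 2-fold and a median of -0.22, with Jak1 lowest (-0.36) and Tyk2 nearest to 0 (-0.15). Other interferon factors and sensors, with a median of -0.17, had 0 lower promoters of 11. Of 14 other interferon-stimulated genes with a promoter peak 4 were lower, including Ifitm3, which blocks virus entry (463 and 194 reads, -1.26), and Ifi27 (210 and 92.0 reads, -1.19), and the median was -0.37. That list held promoters above 0, among them H2-K1 (0.18) and Ifi44 (0.11), while the 10 member effectors held none. Which of these genes became members was decided with earlier results of these data known.

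NF-kB kinases and other subunits had 1 lower promoter of 12 (all promoter peaks, 8.26%), that of Myd88, the adaptor of Toll-like and interleukin-1 receptors (388 and 184 reads, -1.08), and a median of -0.23. Of 10 cytokine receptors 1 was lower (Csf1r, -1.71), and the median was -0.38. Il6st, the shared receptor chain of the interleukin-6 family, had 772 and 678 reads (-0.19). Of 10 other cytokine and prostaglandin genes 2 were lower, namely Il1rn, the interleukin-1 receptor antagonist (384 and 147 reads, -1.38), and Tnf (120 and 59.0 reads, -1.02), with a median of -0.53. These lists were chosen with earlier results of the same data known.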

How the data were processed

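ATAC-seq was performed on 12 libraries of embryonic fibroblasts at day 2. As the study's methods give it, the authors used Trimmomatic 0.38 for trimming and Bowtie2 2.3.4.3 for alignment to mm10, then cleaned, recalibrated for the Tn5 insertion bias and filtered the alignments with SAMtools 1.10, Picard 2.18.16 and bedtools 2.27.1, and ran DiffBind 3.4.11 for the differential peak analysis. MACS2 2.1.2 is the peak caller in the methods and Genrich in the reporting summary, and this was not resolved here. Also, whether peaks were called per library is not stated. The deposited concentrations used here are log2 values of mean normalized read counts, which the authors computed with DiffBind over the 3 libraries of each group. For this step the methods refer to the DiffBind vignette of that version and do not name the scaling behind these values. The shift of all peaks (-0.42, and -0.41 for the ratio of total reads) shows that neither medians nor totals in peaks were made equal. The deposited fold changes, p-values and FDR, and a pair of interval lists made from them, hold the authors' own comparison and were not used.

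The difference of group means was described against a limit of 2-fold, beside all peaks. For the distal and the 43 promoter peaks, level was matched in 10 equal bins of all peaks, within the same peak class. For the 38 promoter values, level and base composition were matched in 10 equal bins of promoter peaks. With 1 mean per group and no count per library among the values used, no test was run. Promoter peaks were those of which any part lay within 1 kb of a GENCODE M21 start site. Motifs were matched as letters on both strands of GRCm38 sequence, by a search tested on simulated data. Single peaks were named by rule, as the most accessible promoter peak of each member, the 5 lowest and 5 highest differences among member peaks above the median accessibility, promoter peaks with an ISRE core, and for other lists at most 2 promoters in each direction. Peaks named outside this rule are examples chosen after their values were seen. Members and lists were chosen with earlier results of these data known. A result for 1 promoter of these lists is not reported here. Alternatives were other placements of 0, windows, limits and filters. Python 3.11.15, numpy 2.4.6, pandas 2.3.3 and matplotlib 3.10.9 were used.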

Additional observations from a re-analysis of the deposited data

How the results depend on the processing

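No paired analysis was possible because each arm is represented by a single mean, so leaving out replicates and a replicate block were not run. The 52 lower peaks became 20 (9.85%, against 8.64% of all peaks) when centered on all peaks and 20 at equal totals, the 8 higher became 16 in both cases, the median of -0.56 became -0.14 in both and -0.34 when centered on promoters, and the share below 0 of 82.3% became 56.2% in both and 69.5%. Promoter values below 0 became 21 of 38 in place of 36 when centered on all peaks, and of the 4 past 2-fold only Cxcl10 (-1.15) stayed so. Lower and higher peaks numbered 24 and 4 of 105 in gene bodies alone, 28 and 4 of 127 with 2 kb, and 141 and 26 of 592 with 50 kb. These were 22.9%, 22.0% and 23.8% lower and 3.81%, 3.15% and 4.39% higher, beside 24.4% and 8.33% of all peaks. At the members' own promoters 5 of 43 were lower and 0 higher (11.6% lower, against 8.26% of all promoter peaks), with 93.0% below 0. At 1.5-fold the numbers were 98 and 16 (48.3% and 7.88%, against 42.4% and 13.4% of all peaks). At 4-fold they were 2 and 2 (0.985% each, against 0.367% and 2.22%). Without the 25% weakest peaks 3 were higher (1.69%, against 4.14% of all peaks so filtered). Read as a median over the locus, Oasl2 turned from -1.22 to 0.014, and the sign also changed for Irf3 (-0.20 to 0.15), Nfkb1 (0.015 to -0.88) and Cxcl5 (0.0081 to -0.62), which were not past 2-fold. The ISRE share of 7.88% became 14.3% near start sites, an alternative chosen after seeing the data. The other 23 alternatives of these summaries stayed within 1.5 times a count or within the interval of a share or median. Unknown depth and unmeasured replicate spread limit every value.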

Other observations

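Across the genome, 858 promoter peaks held an ISRE core, with a median difference of -0.32, against -0.21 for the rest, and 16.2% of them were lower by 2-fold, against 8.26% of all promoter peaks. The 214 with a kappaB match had a median of -0.27 and 14.5% lower, and the 2424 with an AP-1 match had a median of -0.65 and 31.4% lower. Among distal peaks, 40.2% of those with an AP-1 match were lower, against 32.1% of those with an ISRE core and 33.9% of those with a kappaB match. These are descriptions of overlapping classes of peaks, with no test.

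Of the 4 epithelial marker promoters, Epcam was at 194 and 389 reads (1.00), Krt18 at 134 and 223 (0.74), Krt8 at 226 and 133 (-0.76) and Cdh1 at 186 and 203 (0.13).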
